A study of Mus musculus with 9 samples.

Results

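The genes described here are 35 genes of the dermal adipocyte, the fat cell that lies under the reticular dermis. They were chosen by name for their role (secreted adipokines, lipid droplet, lipolysis, fat synthesis and adipogenic regulators), with earlier results of these data known. All 35 were found among the 29205 genes of the deposited table. Back skin RNA was sequenced from male BALB/c mice aged 6 to 8 weeks in 3 groups, control, IMQ and LYS, with 3 libraries each. The back of every mouse, controls included, was shaved and treated with depilatory cream. The IMQ and LYS mice then received 62.5 mg of a 5% (w/w) imiquimod cream each day for 5 days, and the LYS mice were also given Longkui Yinxiao soup, an herbal decoction, by gavage. Imiquimod (IMQ) activates Toll-like receptor signalling, and mouse skin treated with it develops lesions that resemble psoriasis. All skin was taken on day 13. The labels give no LYS dose, and the study's methods place the sequenced LYS skin in its high-dose group. The study treats the 3 libraries of a group as biological replicates, from skin picked at random in that group, while the labels do not tie a library to a mouse. The p-values set a group difference against the spread between these libraries, which is estimated with information shared across all genes.

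Dermal white adipose tissue is a layer of lipid-filled cells between the dermis and the thin muscle sheet of mouse skin. It stores triacylglycerol in a single large droplet, releases fatty acids and glycerol under adrenergic control, secretes hormones such as adiponectin and leptin, and thickens and thins with the hair cycle. Its differentiation is driven by C/EBPβ, then C/EBPα and PPARγ, which switch on the genes of fat uptake, synthesis and storage. Many genes of lipid metabolism in this tissue are also used by sebaceous glands, muscle or keratinocytes, so whole skin holds several sources of them. The depth to which skin was cut is not given in the sources used here.

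Summed counts ranged from 14658645 to 19609878 per library. The defining adipocyte genes Adipoq, Plin1, Cidec, Lipe, Adrb3, Lep and Retn had counts in all 9 libraries, the lowest being 14 counts of Lep in IMQ 3. Ucp1, the uncoupling protein of brown fat, had between 0 and 4 counts in any library, at which depth no difference was detectable, and it was not tested. The other 34 genes were tested. Levels are given below as CPM, counts scaled to library size with the TMM method, always in the order of libraries 1, 2 and 3 of a group. They compare libraries for a gene and not genes with each other, for which FPKM, a level per gene length, is used.

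Per gene length, Cfd was the most abundant of the 35 genes in control skin, at 3385 ± 1015 FPKM (SD, n = 3). Fabp4 came next at 734 ± 341 FPKM, followed by Cidec at 550.0 ± 249.6, Adipoq at 479 ± 226, Fasn at 348 ± 93.03 and Cd36 at 341 ± 100.4 FPKM. Apart from Cfd, neighbours in this order differed by less than the SD of the higher of the pair. The least abundant of the tested genes was Mlxipl, at 5.30 ± 1.67 FPKM. In IMQ skin the order of these levels was led by Cebpa at 341 ± 26.9 FPKM and Cfd at 336 ± 171 FPKM, which differed by less than either SD, and Fabp4 was at 51.5 ± 26.9 FPKM.

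The proximal promoters of the adipocyte genes were searched for the letters bound by these regulators, because the C/EBP factors are themselves among the genes measured. The window was the 250 bases before each RefSeq start in GRCm38.p6, and 27 of the 35 genes had an entry, with 37 starts between them. Cidea, Dgat1, Dgat2, Lpl, Fabp4, Gpd1, Slc2a4 and Adrb3 had none. The C/EBP motif TTGCNNAA was looked for on both strands and stood in 9.56% of all 32851 promoters of that length and in 4 of the 37 adipocyte gene promoters (10.8%), those of Lep, Cidec, Plin1 and 1 of the listed starts of Pparg. The direct repeat of PPAR and RXR, searched as 2 copies of AGGTCA with 1 base of any kind between them, stood in 11 of the 32851 promoters and in 0 of the 37. An exact match is so rare over all promoters that this 0 cannot show whether the adipocyte genes lack such sites. The E-box CACGTG, part of the motif read by the Mlxipl product, stood in 6.02% of all promoters and in 3 of the 37, those of Lipe, Mgll and Mlxipl. These matches are a description of letters in a short window, and the 4 promoters with the C/EBP motif are printed 5′ to 3′ on the strand of the gene, with the matched letters in capitals. The matches overlapped no other motif searched.
Lep, chr6:29059971-29060220, plus strand: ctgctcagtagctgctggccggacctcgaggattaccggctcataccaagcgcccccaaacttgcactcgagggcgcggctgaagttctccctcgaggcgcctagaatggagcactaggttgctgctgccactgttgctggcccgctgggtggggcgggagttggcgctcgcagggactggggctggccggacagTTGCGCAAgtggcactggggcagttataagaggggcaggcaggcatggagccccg
Cidec, chr6:113434765-113435014, minus strand: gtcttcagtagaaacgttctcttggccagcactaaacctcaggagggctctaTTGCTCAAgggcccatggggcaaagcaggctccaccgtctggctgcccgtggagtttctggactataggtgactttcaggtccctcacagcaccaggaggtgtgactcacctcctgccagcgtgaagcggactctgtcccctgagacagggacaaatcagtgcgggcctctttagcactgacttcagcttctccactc
Plin1, chr7:79732777-79733026, minus strand: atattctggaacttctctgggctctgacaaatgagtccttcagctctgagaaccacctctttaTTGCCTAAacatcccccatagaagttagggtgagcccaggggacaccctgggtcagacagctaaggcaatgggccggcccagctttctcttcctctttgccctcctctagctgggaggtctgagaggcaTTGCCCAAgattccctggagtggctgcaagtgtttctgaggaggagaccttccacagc
Pparg, chr6:115421816-115422065, plus strand: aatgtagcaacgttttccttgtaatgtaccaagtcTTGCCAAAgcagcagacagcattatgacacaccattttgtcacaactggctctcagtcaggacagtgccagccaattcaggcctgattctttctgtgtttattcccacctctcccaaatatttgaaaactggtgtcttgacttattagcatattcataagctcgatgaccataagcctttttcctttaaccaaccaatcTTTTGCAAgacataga
The Lep match begins 55 bases before the start and reads the same on both strands, TTGCGCAA. The Cidec match begins 198 bases before the start, those of Plin1 begin 187 and 58 bases before it, and those of Pparg begin 215 and 16 bases before it, the second on the opposite strand.

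To see how the fat compartment differed in the lesional model, IMQ skin was first compared with control skin. Of the 34 tested genes, 26 fell, 3 rose and 5 did not pass the test, where a call required an edgeR adjusted p below 0.05 together with a log2 fold change above 0.58 in size. Of all 15976 genes tested in this comparison, 51.0% were called by the same rule, 26.9% lower and 24.1% higher. The median log2 fold change was -2.50 over the adipocyte genes and -0.06 over all genes tested. The levels in all 3 IMQ libraries were below those in all 3 control libraries for 27 of the 34 genes, against 38.9% of all genes, and above them for 3, against 31.6%. In bulk skin, fewer cells of a type, less RNA per cell and a larger share of RNA from other cells cannot be told apart. This holds for every difference given here.

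**Figure D1:**
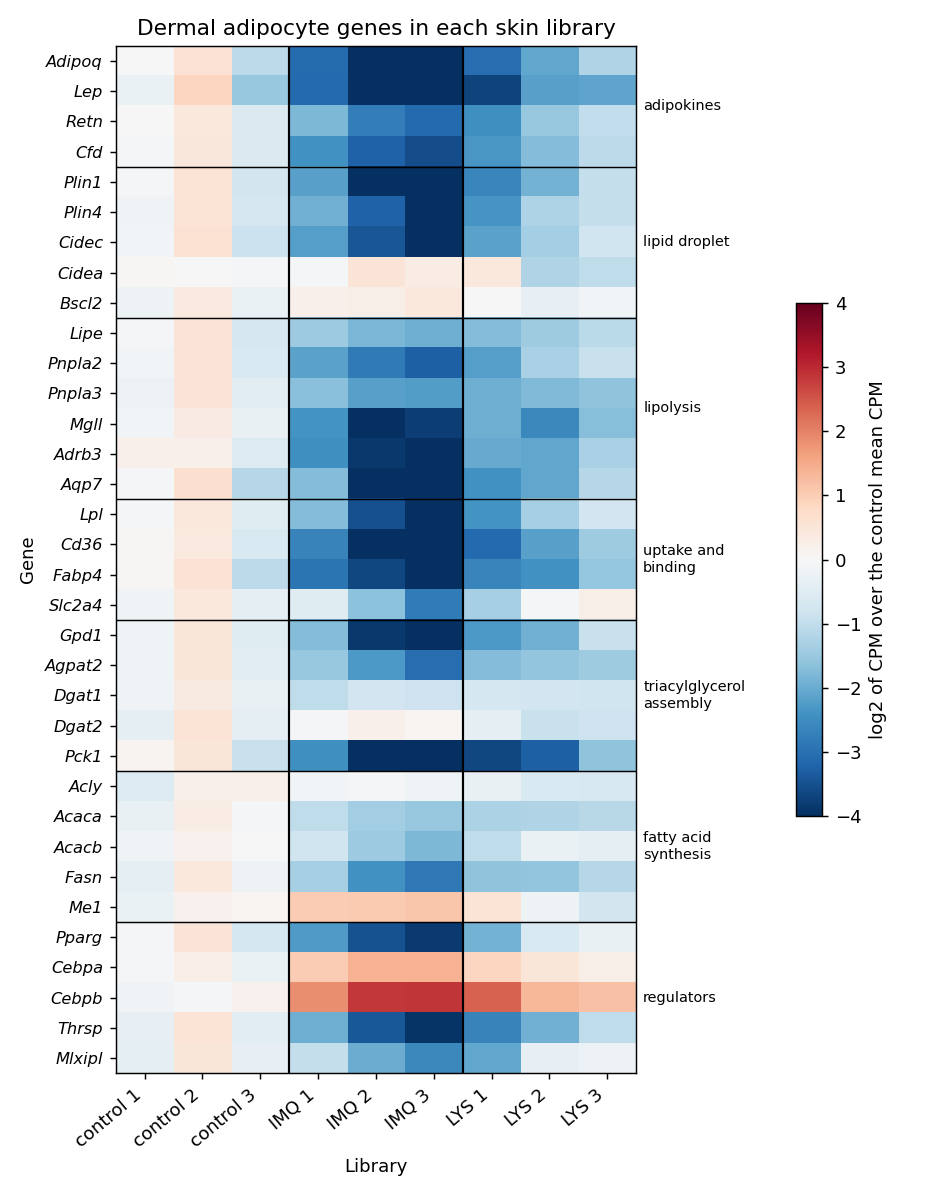
Each row is a tested adipocyte gene and each column a library, and the colour is the log2 of the CPM over the mean CPM of the 3 control libraries, limited to a range of -4 to 4. Most rows are blue in the IMQ columns and paler blue in LYS 2 and LYS 3, while Me1, Cebpa and Cebpb are red in IMQ and Cidea, Bscl2, Dgat2 and Acly show little colour.

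All 4 adipokines fell in IMQ skin. Adipoq (ENSMUSG00000022878, chromosome 16, 23146536 to 23158028 of GRCm38), which encodes the insulin-sensitising hormone adiponectin, had 601, 895 and 289.5 CPM in the control libraries, 70.99, 26.7 and 19.8 CPM in the IMQ libraries and 72.2, 142 and 259 CPM in the LYS libraries. All IMQ libraries lay below all control libraries (log2 fold change -3.86, SE 0.59, edgeR adjusted p = 8.0e-04), a 14.5-fold difference. Lep (ENSMUSG00000059201, chromosome 6, 29060220 to 29073877), which encodes leptin, the hormone that reports fat stores to the brain, had 66.8, 147 and 27.9 CPM in the control libraries, 9.37, 5.05 and 1.003 CPM in the IMQ libraries and 6.20, 18.01 and 18.8 CPM in the LYS libraries. Its groups did not overlap either (log2 fold change -3.88, SE 0.78, edgeR adjusted p = 0.00314), although IMQ 3 rests on 14 counts and the control libraries spread 5.26-fold. Retn encodes resistin, a hormone made by mouse fat cells. It had 280.5, 375 and 189 CPM in the control libraries, 80.7, 41.3 and 32.7 CPM in the IMQ libraries and 51.1, 98.00 and 142 CPM in the LYS libraries, with every IMQ library below every control library (log2 fold change -2.38, SE 0.37, edgeR adjusted p = 9.5e-04). Cfd encodes complement factor D, also called adipsin, the protease that starts the alternative complement pathway. It had 2699, 3793 and 1888 CPM in the control libraries, 523, 295 and 238 CPM in the IMQ libraries and 559, 831 and 1359.8 CPM in the LYS libraries, again without overlap between IMQ and control (log2 fold change -2.92, SE 0.38, edgeR adjusted p = 3.8e-04).

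Of the 5 lipid droplet genes, 3 fell and 2 did not pass the test. Plin1 (ENSMUSG00000030546, chromosome 7, 79720218 to 79732903) encodes perilipin 1, the coat protein that guards the droplet against lipases. It had 510.3, 782 and 322 CPM in the control libraries, 119.7, 28.4 and 16.5 CPM in the IMQ libraries and 87.4, 145 and 279.8 CPM in the LYS libraries, with IMQ 2 and IMQ 3 well below IMQ 1 and all of them below the controls (log2 fold change -3.22, SE 0.72, edgeR adjusted p = 0.00539). Cidec (ENSMUSG00000030278, chromosome 6, 113424634 to 113435760), whose product fuses small droplets into a single large one, had 843, 1404 and 506 CPM in the control libraries, 199, 86.1 and 44.6 CPM in the IMQ libraries and 206, 359.5 and 529 CPM in the LYS libraries. The IMQ and control libraries did not overlap (log2 fold change -2.99, SE 0.58, edgeR adjusted p = 0.00271). Plin4, another droplet coat protein of white fat, fell as well (log2 fold change -2.75, SE 0.57, edgeR adjusted p = 0.00386), from 374, 603 and 261 CPM in the control libraries to 109.8, 44.1 and 21.8 CPM in the IMQ libraries. The droplet fusion gene Cidea, which is also made by sebaceous gland cells, stood apart. It had 24.6, 24.4 and 23.03 CPM in the control libraries, 22.95, 34.01 and 29.2 CPM in the IMQ libraries and 32.4, 10.4 and 11.8 CPM in the LYS libraries, and its IMQ and control libraries overlapped (log2 fold change 0.32, SE 0.16, edgeR adjusted p = 0.113). Bscl2 encodes seipin, a protein of the endoplasmic reticulum at which droplets form in many cell types. It had 88.7, 133 and 84.6 CPM in the control libraries, 118, 121 and 137 CPM in the IMQ libraries and 102, 82.1 and 95.5 CPM in the LYS libraries and also overlapped (log2 fold change 0.36, SE 0.18, edgeR adjusted p = 0.116).

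**Figure D2:**
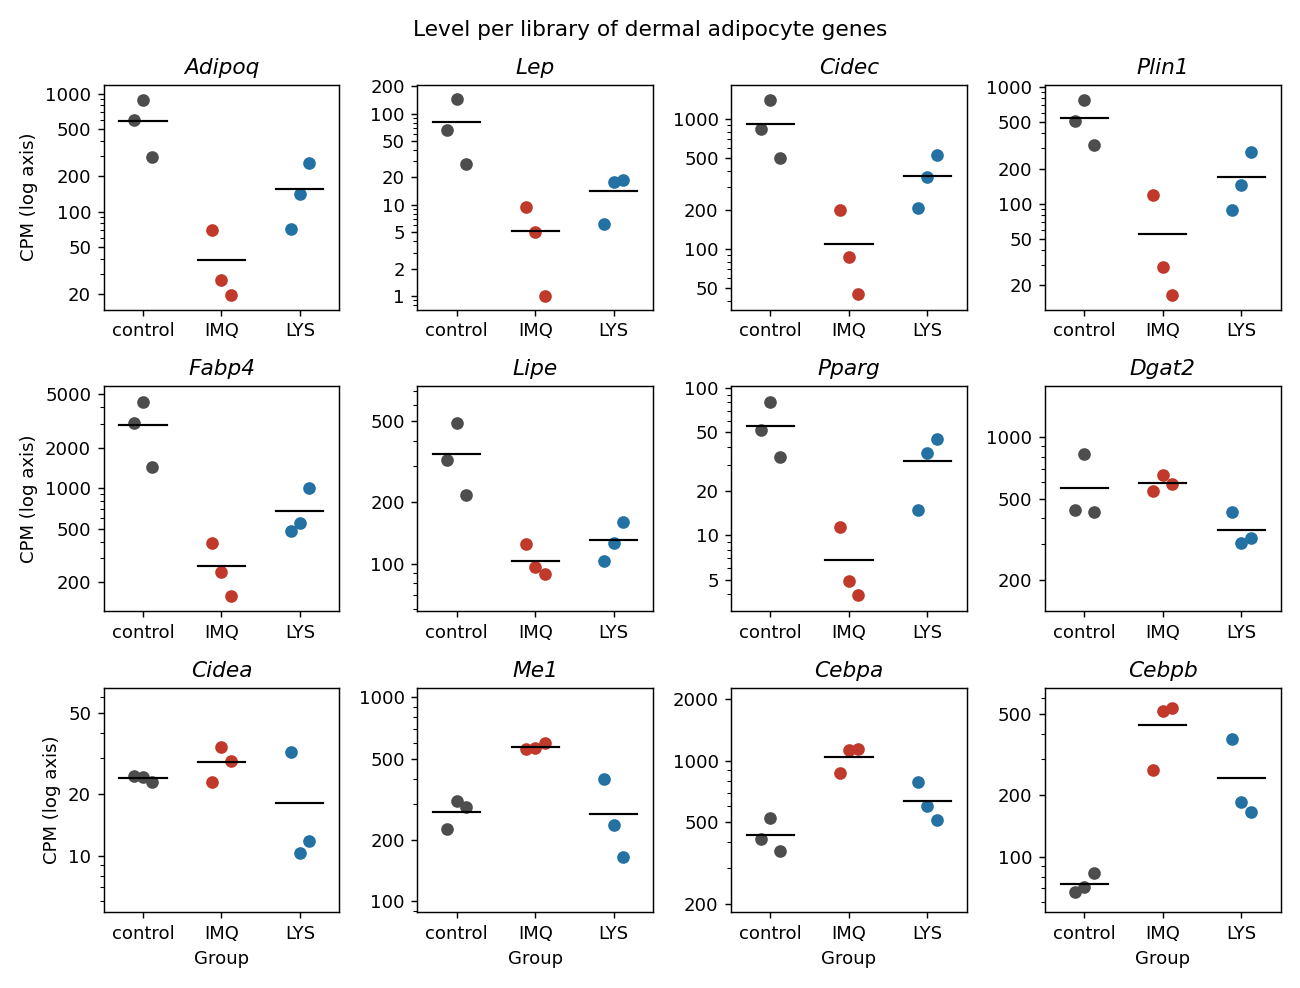
Each panel is a gene, with CPM on a log axis, a point for each library and a line at the mean of the 3 libraries of a group. Adipoq, Lep, Cidec, Plin1, Fabp4, Lipe and Pparg are lower in every IMQ library than in every control library, Dgat2 and Cidea overlap, and Me1, Cebpa and Cebpb are higher in every IMQ library.

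All 6 genes of lipolysis and glycerol release fell in IMQ skin. Pnpla2 encodes adipose triglyceride lipase, which removes the first fatty acid from triacylglycerol. It had 745, 1130.4 and 517 CPM in the control libraries, 179, 112 and 82.1 CPM in the IMQ libraries and 174, 323 and 432 CPM in the LYS libraries, and the IMQ libraries lay below the control libraries (log2 fold change -2.62, SE 0.37, edgeR adjusted p = 5.5e-04). Lipe encodes hormone-sensitive lipase, which takes the next step. It had 323, 488 and 217 CPM in the control libraries, 125, 96.3 and 88.8 CPM in the IMQ libraries and 103, 127 and 161 CPM in the LYS libraries, a smaller difference than that of Pnpla2 but also without overlap (log2 fold change -1.66, SE 0.28, edgeR adjusted p = 0.00145). Mgll, the monoacylglycerol lipase of the last step, had 557, 748 and 489.9 CPM in the control libraries, 113, 37.2 and 43.6 CPM in the IMQ libraries and 153, 101 and 182 CPM in the LYS libraries, with no overlap (log2 fold change -3.15, SE 0.43, edgeR adjusted p = 5.1e-04). Adrb3, the β3-adrenergic receptor that starts lipolysis in fat cells, went from 55.8, 55.9 and 32.6 CPM in the control libraries to 8.72, 3.34 and 2.15 CPM in the IMQ libraries (log2 fold change -3.26, SE 0.47, edgeR adjusted p = 6.2e-04). Every IMQ library of Adrb3 was below every control library, and the lowest held 30 counts. Aqp7, the channel through which glycerol leaves the cell, had 26.9, 43.6 and 12.6 CPM in the control and 8.36, 1.64 and 1.36 CPM in the IMQ libraries (log2 fold change -2.77, SE 0.70, edgeR adjusted p = 0.00949). Pnpla3, a droplet-bound relative of Pnpla2, had 59.1, 97.6 and 50.1 CPM and 21.8, 15.4 and 14.5 CPM (log2 fold change -1.93, SE 0.27, edgeR adjusted p = 5.5e-04). In the annotation, 839 exon bases of Adrb3 (24.9%) and 918 of Lipe (15.6%) lie opposite an antisense gene, and since the sources used here do not say that strand was used in counting, reads of such pairs cannot be told apart. Those antisense genes had mean counts of 10.2 and 21.3 per library, against 434 for Adrb3 and 3601 for Lipe.

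For uptake and binding of fatty acids and glucose, 3 of 4 genes fell. Lpl encodes lipoprotein lipase, which frees fatty acids from circulating lipoproteins and is also made in muscle. It had 1617, 2303 and 1212 CPM in the control libraries, 518, 150.0 and 98.2 CPM in the IMQ libraries and 328, 683 and 1015 CPM in the LYS libraries (log2 fold change -2.68, SE 0.60, edgeR adjusted p = 0.00562), and IMQ 1 was more than 3 times as high as the other IMQ libraries but below all controls. Cd36, the fatty acid transporter of the plasma membrane, had 1137, 1439.9 and 713 CPM in the control libraries, 171, 63.8 and 36.3 CPM in the IMQ libraries and 126, 246 and 405 CPM in the LYS libraries, without overlap between IMQ and control (log2 fold change -3.53, SE 0.57, edgeR adjusted p = 0.00111). Fabp4, the fatty acid carrier of the fat cell cytoplasm, had 3042, 4404 and 1441 CPM in the control libraries, 389, 239 and 159 CPM in the IMQ libraries and 477, 553 and 1007 CPM in the LYS libraries, likewise without overlap (log2 fold change -3.43, SE 0.49, edgeR adjusted p = 5.7e-04). Slc2a4 encodes GLUT4, the insulin-responsive glucose transporter of fat and skeletal muscle. It had 91.5, 139 and 78.5 CPM in the control libraries, 74.4, 33.2 and 14.7 CPM in the IMQ libraries and 40.6, 99.8 and 121 CPM in the LYS libraries, and although its IMQ libraries were all below its control libraries, it missed the threshold (log2 fold change -1.27, SE 0.50, edgeR adjusted p = 0.0577), and IMQ 1 lay close to control 3.

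Of the 5 genes of triacylglycerol assembly, 4 fell. Pck1, which supplies glycerol phosphate from pyruvate, had 357, 467 and 179.9 CPM in the control libraries, 61.02, 7.26 and 5.66 CPM in the IMQ libraries and 26.6, 35.04 and 109 CPM in the LYS libraries. It differed most among the IMQ libraries (10.8-fold between the highest and the lowest) and still did not overlap with the controls (log2 fold change -3.69, SE 0.89, edgeR adjusted p = 0.00793). Gpd1, which makes glycerol phosphate from a glycolytic intermediate, had 401, 635 and 327 CPM in the control and 135, 31.6 and 17.1 CPM in the IMQ libraries (log2 fold change -2.82, SE 0.71, edgeR adjusted p = 0.00918), the latter all below the former. Agpat2, the acyltransferase whose loss gives congenital lipodystrophy, had 226, 359 and 188 CPM and 90.9, 52.3 and 31.1 CPM (log2 fold change -2.08, SE 0.40, edgeR adjusted p = 0.00244). The final acyltransferases stood apart from these. Dgat1 had 82.3, 116 and 74.2 CPM in the control libraries, 44.8, 53.1 and 51.2 CPM in the IMQ libraries and 55.5, 53.5 and 52.1 CPM in the LYS libraries, the smallest of the called differences (log2 fold change -0.81, SE 0.17, edgeR adjusted p = 0.00443). Dgat2 had 440.4, 826 and 429.6 CPM in the control libraries, 547, 651 and 590.4 CPM in the IMQ libraries and 427, 302 and 321 CPM in the LYS libraries, with IMQ libraries inside the range of the controls (log2 fold change 0.14, SE 0.26, edgeR adjusted p = 0.659).

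Fatty acid synthesis was divided, with 3 of 5 genes lower, 1 higher and 1 not called. Fasn, the fatty acid synthase, had 2649.7, 4591 and 2959 CPM in the control libraries, 1364, 634 and 471 CPM in the IMQ libraries and 1109, 1149 and 1527 CPM in the LYS libraries, with all IMQ libraries below the controls (log2 fold change -1.98, SE 0.42, edgeR adjusted p = 0.00434). Acaca and Acacb encode the acetyl-CoA carboxylases that make malonyl-CoA for synthesis and for the control of fatty acid oxidation. Acaca had 341, 508 and 403 CPM in the control and 206, 161 and 145 CPM in the IMQ libraries (log2 fold change -1.23, SE 0.20, edgeR adjusted p = 0.00106), and Acacb had a log2 fold change of -1.22 (SE 0.24). Acly, which makes cytosolic acetyl-CoA, had 325, 555 and 554 CPM in the control libraries, 444, 466 and 421 CPM in the IMQ libraries and 389, 315 and 308 CPM in the LYS libraries, with the IMQ libraries inside the control range (log2 fold change -0.047, SE 0.22, edgeR adjusted p = 0.863). Me1, the malic enzyme that supplies NADPH, moved the other way. It had 227, 309 and 290.0 CPM in the control libraries, 555, 566 and 599 CPM in the IMQ libraries and 399, 237 and 165 CPM in the LYS libraries, and every IMQ library was above every control library (log2 fold change 1.12, SE 0.16, edgeR adjusted p = 5.3e-04).

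Among the 5 regulators, 3 fell and 2 rose. Pparg (ENSMUSG00000000440, chromosome 6, 115360951 to 115490399), the master regulator of fat cell identity, had 52.2, 80.1 and 34.1 CPM in the control libraries, 11.4, 4.91 and 3.94 CPM in the IMQ libraries and 14.9, 36.02 and 44.7 CPM in the LYS libraries. The IMQ libraries lay below the control libraries without overlap (log2 fold change -2.95, SE 0.45, edgeR adjusted p = 8.0e-04). Thrsp, a lipogenic regulator induced by thyroid hormone, had 459, 856 and 424 CPM in the control libraries, 148, 55.8 and 38.04 CPM in the IMQ libraries and 91.5, 154 and 285 CPM in the LYS libraries, also without overlap (log2 fold change -2.78, SE 0.52, edgeR adjusted p = 0.00237). Mlxipl encodes ChREBP, the glucose-sensing activator of lipogenic genes. It had 20.6, 37.1 and 21.1 CPM in the control and 13.7, 6.69 and 4.37 CPM in the IMQ libraries (log2 fold change -1.59, SE 0.41, edgeR adjusted p = 0.0106). Both C/EBP genes were higher in IMQ skin, although the median of the adipocyte genes was lower. Cebpa had 416, 525 and 362 CPM in the control libraries, 873, 1133 and 1146 CPM in the IMQ libraries and 791, 603 and 512 CPM in the LYS libraries (log2 fold change 1.34, SE 0.20, edgeR adjusted p = 6.9e-04), and every IMQ library exceeded every control library. Cebpb (ENSMUSG00000056501, chromosome 2, 167688915 to 167690418) had 66.9, 71.3 and 83.1 CPM in the control libraries, 267, 519 and 538 CPM in the IMQ libraries and 375, 185 and 166 CPM in the LYS libraries, with IMQ 1 lower than the other IMQ libraries but far above the controls (log2 fold change 2.64, SE 0.27, edgeR adjusted p = 1.3e-04). Both factors are also known in keratinocytes and, for Cebpb, in inflammatory cells. In the annotation, 312 bases of the Cebpb exon (20.7%) lie opposite Tmem189, which had a mean of 767 counts per library against 3924 for Cebpb.

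**Figure D3:**
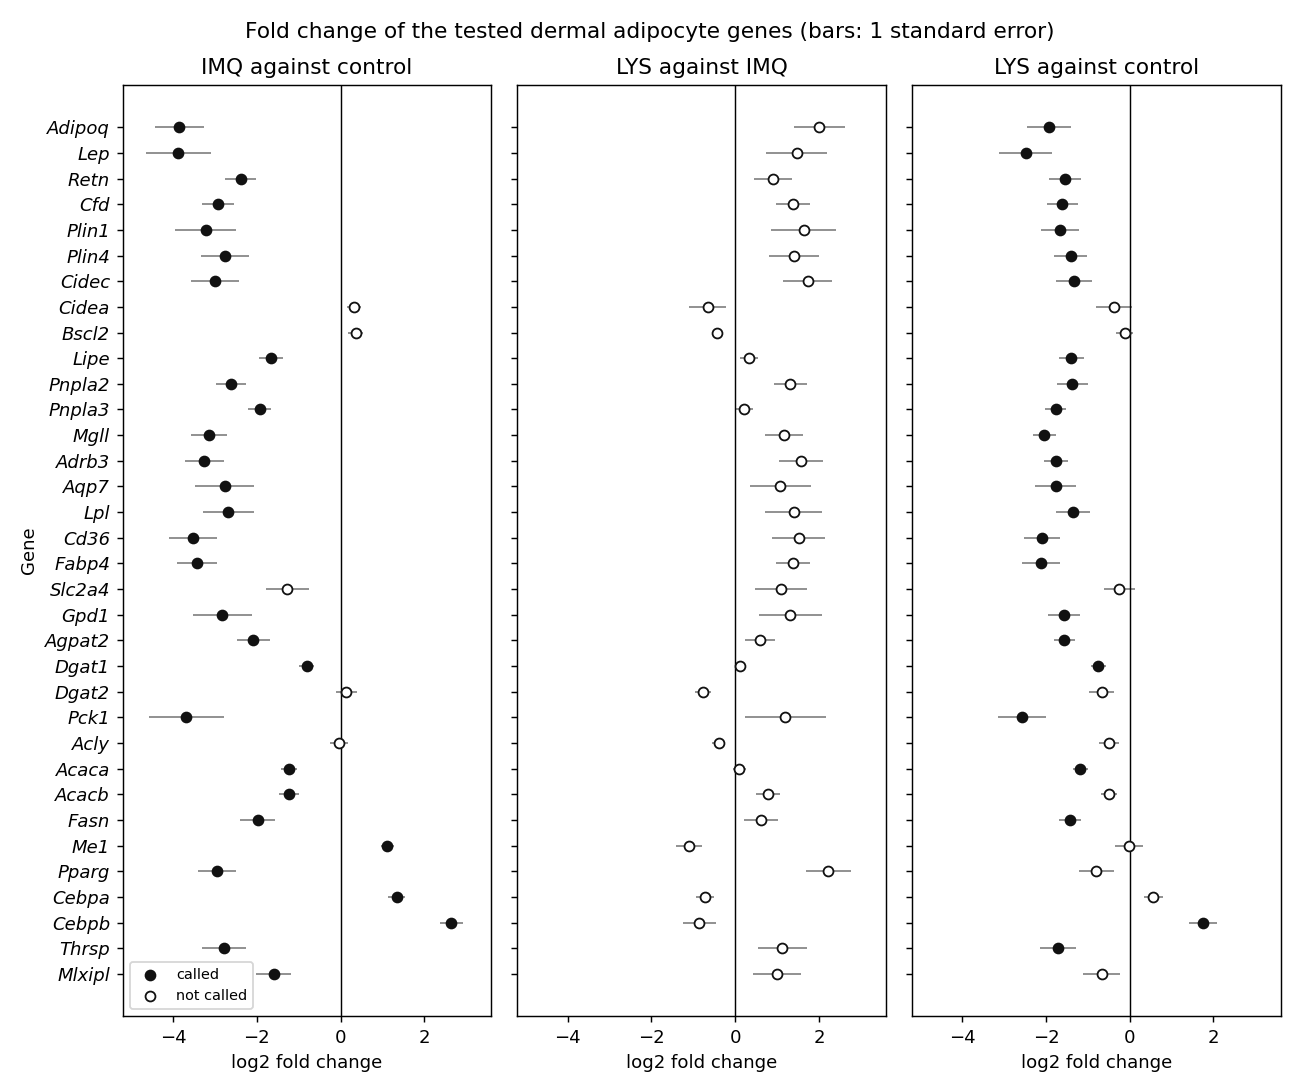
Each row is an adipocyte gene, each panel a comparison, points are log2 fold changes from edgeR and bars are 1 standard error, with filled points for genes past both thresholds. For IMQ against control 29 points are filled, for LYS against IMQ 0 are filled while 27 of 34 lie to the right of 0, and for LYS against control 24 are filled.

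The adipocyte genes tended to be high or low in the same libraries of a group. Of the 34 genes, 32 were highest in control 2 among the controls and 27 were lowest in control 3. In the IMQ group 26 were highest in IMQ 1 and 26 lowest in IMQ 3, and in the LYS group 25 were highest in LYS 3 and 24 lowest in LYS 1. This order was not particular to them, and no count over all genes was made. Fibroblast markers summed to 10629, 4658 and 3427 CPM in IMQ and to 9359, 15432 and 19146 CPM in LYS. Endothelial, macrophage and muscle sums had the same order in both groups. The keratinocyte sum ran the other way, and sebaceous and hair follicle sums had other orders. The spread within a group reached 5.26-fold for Lep in the control group, 10.8-fold for Pck1 in the IMQ group and 4.11-fold for Pck1 in the LYS group. Cidea varied 1.07-fold among the controls, the least of the 34. The summed level of the 35 genes was 14807 to 29083 CPM in the control libraries, 5182 to 7695 in the IMQ libraries and 6728 to 10431 in the LYS libraries.

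To set such library differences aside, each gene was also divided by Adipoq in the same library, which removes the scaling of the libraries. This is a description with no test, and a ratio shows only that genes changed unequally. Because Adipoq had the second largest fall of the 34 genes in IMQ skin, its choice as the divisor sets most of the ratios higher there. Ratios were computed for the adipocyte genes only, so the counts below have no share over all genes beside them and show nothing particular to these genes. The ratio was higher in all 3 IMQ libraries than in all 3 control libraries for 26 of 33 genes and overlapped for the other 7, which were Lep, Plin1, Mgll, Adrb3, Cd36, Gpd1 and Pck1. Plin1 was 0.849, 0.874 and 1.11 times Adipoq in the control libraries and 1.69, 1.06 and 0.830 times in the IMQ libraries, and Lep was 0.111, 0.164 and 0.0965 times and 0.132, 0.189 and 0.0505 times. Fabp4 was 5.06, 4.92 and 4.98 times Adipoq in the control libraries, a ratio that varied little although Adipoq itself varied 3.09-fold, and 5.48, 8.95 and 8.004 times in the IMQ libraries. Lipe was 0.537, 0.545 and 0.750 times Adipoq in the control libraries and 1.76, 3.61 and 4.48 times in the IMQ libraries, and Pparg was 0.0867, 0.0895 and 0.118 times and 0.161, 0.184 and 0.199 times. Dgat2 departed further, at 0.733, 0.923 and 1.48 times in the control libraries and 7.71, 24.4 and 29.7 times in the IMQ libraries. In the LYS libraries 25 of the 33 ratios overlapped with the control range. The ratio was above it for Cidec, Bscl2, Slc2a4, Pparg, Cebpa, Cebpb and Mlxipl and below it for Pck1. For Pparg the LYS values were 0.206, 0.254 and 0.173, and for Pck1 they were 0.368, 0.247 and 0.422 against 0.594, 0.522 and 0.621 in the controls.

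**Figure D4:**
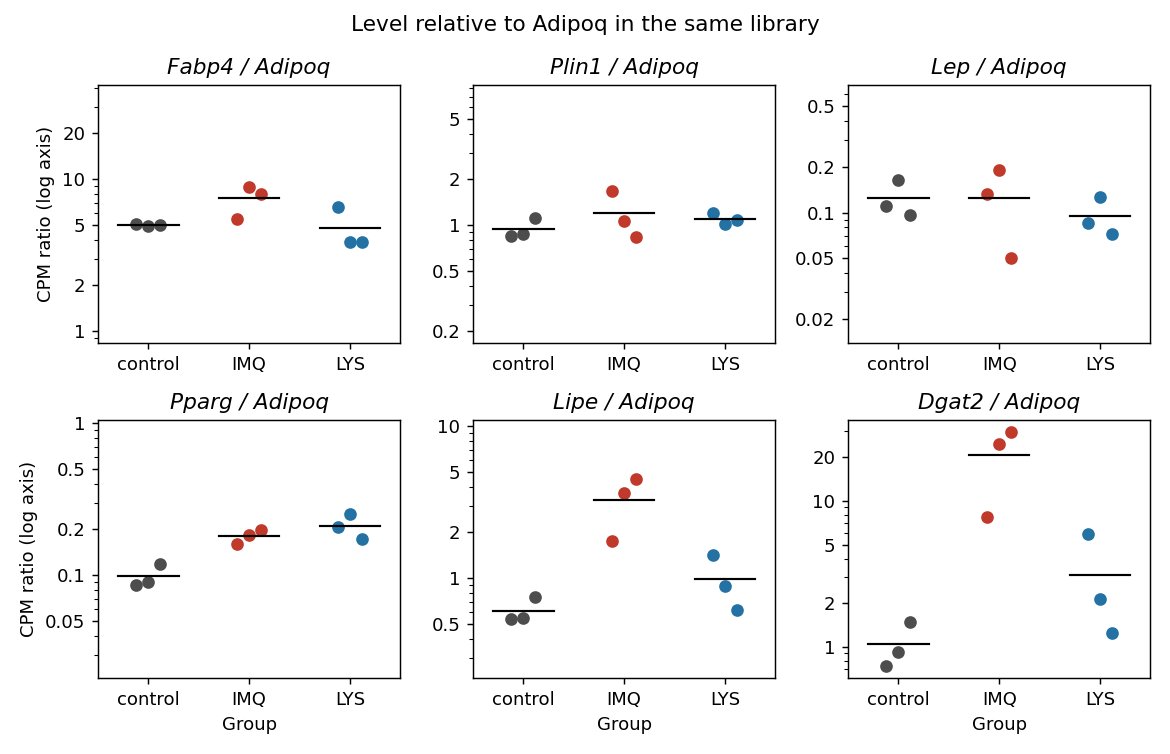
Each panel is a gene, and the vertical axis is its CPM divided by that of Adipoq in the same library, on a log axis, with a point for each library and a line at the group mean. Plin1 and Lep overlap between groups, Fabp4 and Pparg are moderately higher in IMQ, and Lipe and Dgat2 lie further above the control ratios in IMQ.

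LYS skin was compared with IMQ skin to ask whether the soup altered these levels. With edgeR 0 of the 34 genes were called, as were 0 of all 15460 genes tested (0%). Before adjustment 15 of them had a p below 0.05 (10 higher in LYS, 5 lower), and 35.2% of all genes did (19.3% higher, 15.9% lower). Log2 fold changes were positive for 27 genes and negative for 7, with a median of 1.09, and the median of all genes was 0.04. The LYS and IMQ levels did not overlap for 11 genes. Adipoq, Cfd, Cidec, Adrb3, Fabp4 and Pparg were above IMQ in all LYS libraries, against 19.2% of all genes, and Bscl2, Dgat2, Acly, Me1 and Cebpa were below it, against 19.3%. The count of 0 changed when either of 2 libraries was left out, as did the calls over all genes. Without IMQ 1, 18 of the 34 genes were called, all higher in LYS, where 11.8% of all genes were called. Without LYS 1, 12 were called, 7 higher and 5 lower, where 26.8% of all genes were called. Leaving out any other library gave 0 of the 34 and 0 of all genes. Another tool, DESeq2, called 13 of the 35 genes on the same 6 libraries, 10 higher and 3 lower, and 12.2% of all genes.

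The smallest edgeR adjusted p of all 15460 genes in this comparison was 0.0591, and the values of single genes below stand beside it. Pparg, at 11.4, 4.91 and 3.94 CPM in IMQ and 14.9, 36.02 and 44.7 CPM in LYS, had the smallest adjusted p of the 34 (log2 fold change 2.23, SE 0.53, edgeR adjusted p = 0.0603). Adipoq, at 70.99, 26.7 and 19.8 CPM in IMQ and 72.2, 142 and 259 CPM in LYS, had its lowest LYS library just above its highest IMQ library (log2 fold change 2.01, SE 0.61, edgeR adjusted p = 0.0766). For Cidec (log2 fold change 1.73, SE 0.58, edgeR adjusted p = 0.0889) and Fabp4 (log2 fold change 1.37, SE 0.41, edgeR adjusted p = 0.0743) the separation was of the same kind. The other adipokine with groups that did not overlap was Cfd, with 523, 295 and 238 CPM in IMQ and 559, 831 and 1359.8 CPM in LYS (log2 fold change 1.38, SE 0.41, edgeR adjusted p = 0.0749). Lep overlapped, since LYS 1 lay below IMQ 1 (log2 fold change 1.47, SE 0.73, edgeR adjusted p = 0.192).

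For the 6 lipolysis genes, none of them called in LYS against IMQ, the log2 fold changes were 1.57 (SE 0.52) for Adrb3, 1.32 (SE 0.40) for Pnpla2, 1.17 (SE 0.45) for Mgll, 1.08 (SE 0.72) for Aqp7, 0.33 (SE 0.21) for Lipe and 0.22 (SE 0.20) for Pnpla3. Differences between these genes were not tested. Within synthesis and assembly, Acaca had a log2 fold change of 0.10 (SE 0.16), Dgat1 one of 0.11 (SE 0.11) and Fasn one of 0.62 (SE 0.40). Lower values were found for Dgat2 (log2 fold change -0.76, SE 0.18, edgeR adjusted p = 0.0606), whose LYS libraries were all below the IMQ libraries. The genes that rose in IMQ skin had negative values here, -1.10 (SE 0.31) for Me1, -0.72 (SE 0.22) for Cebpa and -0.86 (SE 0.39) for Cebpb, and none passed the test. Both comparisons share the IMQ libraries, so values in opposite directions are not independent of each other.

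LYS skin was then set against control skin to see which differences from untreated skin were found with LYS. Of the 34 genes, 24 were called by edgeR, 23 lower and 1 higher in LYS, where 28.0% of all 16003 genes were called, 12.9% lower and 15.1% higher. The median log2 fold change was -1.40, against -0.01 over all genes. All 4 adipokines fell (-1.92 for Adipoq, -2.49 for Lep, -1.54 for Retn and -1.61 for Cfd, as log2 fold changes), as did all 6 lipolysis genes, from -2.03 for Mgll to -1.37 for Pnpla2. Pck1 had the most negative value of the 34 (log2 fold change -2.56, SE 0.57, edgeR adjusted p = 0.0138). Cebpb was the gene that rose (log2 fold change 1.74, SE 0.33, edgeR adjusted p = 0.00814). The 10 genes that did not pass were Cidea, Bscl2, Slc2a4, Dgat2, Acly, Acacb, Me1, Pparg, Cebpa and Mlxipl. Pparg was at 52.2, 80.1 and 34.1 CPM in control and 14.9, 36.02 and 44.7 CPM in LYS, with LYS 2 and LYS 3 inside the control range (log2 fold change -0.80, SE 0.41, edgeR adjusted p = 0.176). Slc2a4 likewise had LYS 2 and LYS 3 inside the control range (log2 fold change -0.24, SE 0.37, edgeR adjusted p = 0.647), and Me1 had values on both sides of the controls (log2 fold change -0.020, SE 0.33, edgeR adjusted p = 0.97). This count also moved with single libraries, together with the calls over all genes. It was 11 without control 1, where 15.8% of all genes were called, 10 without control 2, where 18.0% were, and 9 without LYS 2, where 17.9% were. With any of the other 3 libraries left out it was 23 to 25, and 21.8% to 30.8% of all genes were called.

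Other genes of the same pathways were taken from lists set by name, also with earlier results of these data known. Among 16 further droplet and lipolysis genes, 10 fell and 3 rose in IMQ against control, 0 were called in LYS against IMQ, and 6 fell and 1 rose in LYS against control. Over all genes, 26.9% fell and 24.1% rose in IMQ against control. The shares were 0% called in LYS against IMQ, and 12.9% lower and 15.1% higher in LYS against control. The genes named from each further list were picked for the 3 largest differences in IMQ against control, at a mean of at least 1 CPM. Their p-values in that comparison come after this choice. Cav1, the coat protein of the caveolae that crowd the fat cell membrane, had 816, 1129 and 594 CPM in the control libraries, 212, 88.7 and 78.5 CPM in the IMQ libraries and 182, 274 and 484 CPM in the LYS libraries (log2 fold change -2.68, SE 0.42, edgeR adjusted p = 9.6e-04). Pde3b, the phosphodiesterase by which insulin restrains lipolysis, had 77.4, 96.5 and 54.6 CPM in the control libraries, 26.6, 9.89 and 7.59 CPM in the IMQ libraries and 21.8, 42.9 and 59.7 CPM in the LYS libraries (log2 fold change -2.30, SE 0.45, edgeR adjusted p = 0.00276), and like Cav1 it did not overlap between IMQ and control. Hilpda, an inhibitor of adipose triglyceride lipase induced by hypoxia, went the other way. It had 10.5, 12.01 and 11.8 CPM in the control libraries, 62.3, 101 and 96.9 CPM in the IMQ libraries and 70.8, 50.5 and 22.6 CPM in the LYS libraries and rose in IMQ (log2 fold change 2.98, SE 0.20, edgeR adjusted p = 2.3e-05).

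Among 20 further genes of fat synthesis and uptake, 11 fell and 3 rose in IMQ against control, beside 26.9% and 24.1% of all genes. Scd1, which makes monounsaturated fatty acids in fat and in sebaceous glands, had 9196, 14989.7 and 4638 CPM in the control libraries, 1354, 418 and 344 CPM in the IMQ libraries and 1298, 1235 and 1963 CPM in the LYS libraries (log2 fold change -3.70, SE 0.67, edgeR adjusted p = 0.00186). Angptl4, a secreted inhibitor of lipoprotein lipase, had 218, 247 and 132 CPM in the control and 31.8, 4.55 and 5.45 CPM in the IMQ libraries (log2 fold change -3.76, SE 0.72, edgeR adjusted p = 0.00249). Mogat1, an acyltransferase of monoacylglycerol, fell from 2.64, 5.11 and 1.44 CPM to 0.178, 0.213 and 0.143 CPM (log2 fold change -3.99, SE 0.63, edgeR adjusted p = 9.5e-04), with too few counts in the IMQ and LYS libraries for a test between them. Of these 20 genes, 19 were tested in LYS against IMQ with 0 called. In LYS against control 10 fell and 2 rose, beside 12.9% and 15.1% of all genes.

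Of 19 further regulators, receptors and adipocyte-specific genes tested in IMQ against control, 12 fell and 5 rose, beside 26.9% and 24.1% of all genes. Lepr, the leptin receptor, had 93.95, 106 and 103 CPM in the control libraries, 10.4, 6.48 and 3.65 CPM in the IMQ libraries and 13.3, 21.9 and 29.7 CPM in the LYS libraries and did not overlap between IMQ and control (log2 fold change -3.81, SE 0.32, edgeR adjusted p = 5.1e-05). Sncg, a synuclein of fat cells and sensory neurons, had 116, 198 and 36.6 CPM in the control and 6.46, 5.05 and 3.15 CPM in the IMQ libraries (log2 fold change -4.50, SE 0.61, edgeR adjusted p = 4.6e-04). Trarg1, a regulator of GLUT4 traffic, also fell (log2 fold change -2.82, SE 0.69, edgeR adjusted p = 0.00809). The 5 genes that rose were Rxra, Klf5, Adipor1, Adipor2 and Ppard, broadly expressed nuclear receptors, a Krüppel-like factor and the adiponectin receptors. In LYS against IMQ 0 were called, with values of 1.66 (SE 0.43) for Lepr and 1.48 (SE 0.37) for Sncg. In LYS against control, where 20 were tested, 4 fell and 3 rose, beside 12.9% and 15.1% of all genes.

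Of 10 brown and beige fat genes beside Ucp1, 8 were tested, with mean levels of 0.347 to 139 FPKM in control skin. Which cells these levels come from was not tested. Of these, 6 fell and 0 rose in IMQ against control, beside 26.9% and 24.1% of all genes. The largest differences were those of Elovl3 (log2 fold change -3.80, SE 0.48, edgeR adjusted p = 3.4e-04), a fatty acid elongase of brown fat that is also a sebaceous gland gene, Dio2 (log2 fold change -2.44, SE 0.36, edgeR adjusted p = 7.4e-04), the deiodinase that activates thyroid hormone, and Tbx1 (log2 fold change -1.75, SE 0.33, edgeR adjusted p = 0.0022), a T-box factor. In LYS skin Elovl3 had 45.00, 6.10 and 3.03 CPM, with LYS 1 well above the others.

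The summed levels of markers of other skin cells moved with the groups as well. The 10 sebaceous gland markers summed to 1143 to 1215 CPM in control, 214 to 307 in IMQ and 293 to 847 in LYS libraries. All 10 fell in IMQ against control, beside 26.9% of all genes, and Cidea was not called there. The 10 skeletal muscle markers summed to 11678 to 12898 CPM in control, 2053 to 5001 in IMQ and 5109 to 10198 in LYS libraries. The 10 fibroblast markers gave 22796 to 29357, 3427 to 10629 and 9359 to 19146 CPM, and the 10 endothelial markers 533 to 758, 221 to 477 and 455 to 971 CPM. Macrophage markers, also 10, gave 2041 to 3110, 1199 to 1617 and 2299 to 5544 CPM. The 10 keratinocyte markers had a sum that was higher in IMQ, at 6747 to 11401 CPM in control, 42843 to 57066 in IMQ and 20021 to 35311 in LYS libraries, with Me1, Cebpa and Cebpb highest in the same group. Of these markers 9 rose in IMQ against control and 1, Krt15, fell (log2 fold change -0.78), beside 24.1% and 26.9% of all genes. The 9 hair follicle markers in the table summed to 2695 to 5716 CPM in control, 31.2 to 35.7 in IMQ and 12.2 to 33.2 in LYS libraries, and the follicle keratins Krt25, Krt28, Krt71 and Krt35 were at 0 in some IMQ or LYS libraries. No gene of the other marker lists was at 0 in any library. The part of these cell types in the levels of the adipocyte genes was not tested.

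**Figure D5:**
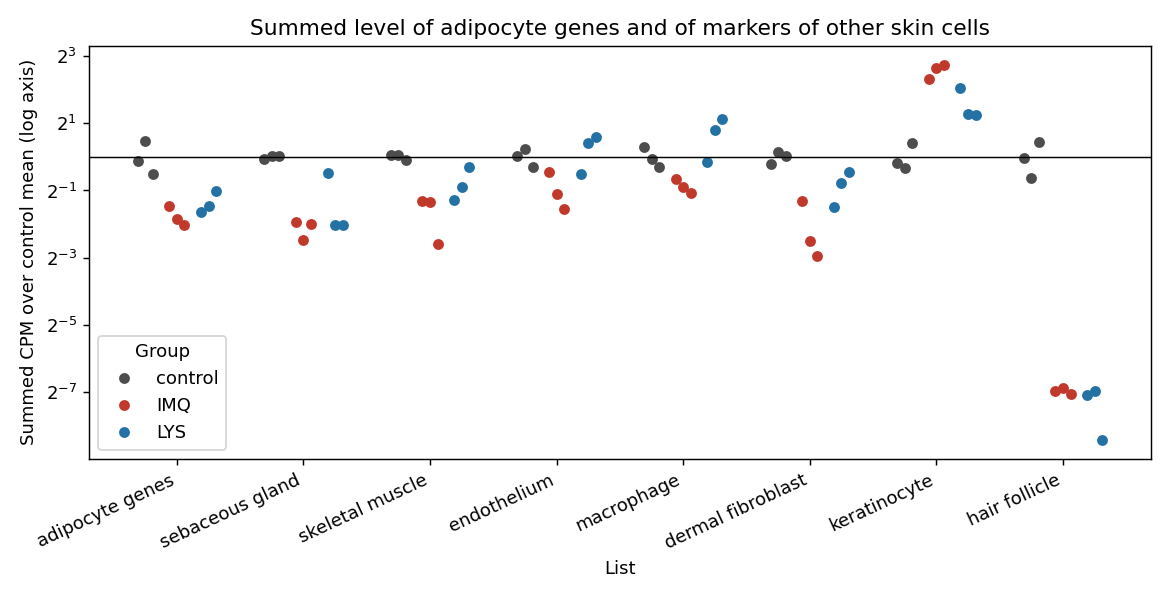
Each point is a library, and its height is the summed CPM of a list divided by the mean of the 3 control libraries, on a log axis. Sums of the adipocyte genes and of sebaceous, muscle, endothelial, macrophage and fibroblast markers are lower in IMQ. The sum of keratinocyte markers is higher there, and hair follicle markers are far lower in both IMQ and LYS.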

How the data were processed

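Libraries were made from total RNA with the NEBNext Ultra kit. The authors deposited whole-number counts per Ensembl gene and FPKM for the same 9 libraries. The submitters' processing notes name HISAT2, HTSeq 0.13.5 and GRCm38, without settings. Each deposited FPKM could be recomputed from its count, the gene length and the library's total count to within 0.1 percent, for all 196728 values checked. Counts were analysed in R 4.3.3 with edgeR 4.0.16 (TMM, filterByExpr, quasi-likelihood test, Benjamini-Hochberg adjustment over all genes tested), each comparison fitted on its own 6 libraries without a block. A call required an adjusted p below 0.05 together with a log2 fold change above 0.58 in size, the thresholds of the study, which does not name its test. At these thresholds the study reported changed genes in LYS against IMQ, where edgeR called 0 here. In IMQ against control edgeR called 8145 genes, more than the study reported. The reason for these differences was not tested. The standard error is the absolute log2 fold change divided by the root of the F statistic. The fits were run on simulated data with 200 changed genes. This is a far smaller share of genes than edgeR called in IMQ against control, so the simulation does not cover that setting. The 35 genes, the other lists and their roles were chosen with earlier results of these data known. Named were all 35 genes and, of each further pathway list, the 3 with the largest absolute log2 fold change in IMQ against control at a mean of at least 1 CPM. Alternatives were size factors of DESeq2, library totals, no count filter, DESeq2 1.42.0, all 9 libraries together, a replicate block, other thresholds and each library left out. Promoters came from RefSeq and coordinates and exons from GENCODE M21. Plots used matplotlib 3.10.9 (Python 3.11.15). No pair of replicate libraries was alike within counting noise (chi-square 18.4 to 109 for each degree of freedom). Same-numbered libraries correlated at -0.06 to 0.21 in IMQ against control, -0.48 to 0.08 in LYS against IMQ and -0.39 to 0.02 in LYS against control, so the numbers were not taken as pairs.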

Additional observations from a re-analysis of the deposited data

How the results depend on the processing

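In IMQ against control, 28 to 30 of the 34 genes were called under every alternative run, each library left out included (29 to 30). In LYS against IMQ the count of 0 became 9 (7 higher, 2 lower) without a filter on low counts, 13 (10 higher, 3 lower) with DESeq2 and 6 (4 higher, 2 lower) with all 9 libraries in 1 fit, and ranged from 0 to 18 with a library left out. The corresponding calls over all genes were 2419 (8.83%), 3345 (12.2%) and 3040 (18.5%). In LYS against control the count of 24 ranged from 9 to 25 with a library left out and was 17 with all 9 libraries in 1 fit, where 28.0% of all genes were called. Why these counts moved was not tested. With the replicate number as a block, the calls numbered 30 in IMQ against control, 0 in LYS against IMQ (7 of 34 at an unadjusted p under 0.05) and 17 in LYS against control, where 19.5% of all genes were called. The sources used here do not say whether same-numbered libraries are linked, and the reason for the counts with this block was not tested. Scaling by library totals alone moved the median of all genes to -0.51, 0.29 and -0.15 in the 3 comparisons and the share of called genes that were higher from 47.3% to 25.9% in IMQ against control and from 53.9% to 41.5% in LYS against control. The adipocyte genes called were then 30, 0 and 25. With that scaling the uncalled values of IMQ against control turned to -0.14 for Cidea, -0.084 for Bscl2 and -0.30 for Dgat2 beside that median of -0.51 for all genes. With a library left out, other values near 0 changed sign. In IMQ against control Dgat2 ranged from -0.024 to 0.51 and Acly from -0.27 to 0.074. In LYS against IMQ Acaca ranged from -0.0028 to 0.25. In LYS against control Bscl2 ranged from -0.24 to 0.091, Slc2a4 from -0.53 to 0.10 and Me1 from -0.46 to 0.25. The cause of these changes of sign was not tested. No called gene reversed under any alternative run. Depth limited Ucp1, and Lep, Aqp7 and Adrb3 rest on 14 to 30 counts in their lowest IMQ library.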
